A study of Mus musculus with 24 samples.

Results

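Long noncoding RNAs and the host RNAs of small nucleolar RNAs (snoRNAs) were followed on 24 one-colour arrays of TM3 cells, a mouse Leydig cell line. The 8 genes described are Mir100hg, Neat1, Malat1, Meg3, H19, Gas5, Snhg1 and Snhg12, and they were selected with measured values of these arrays in view. Each was found through the RefSeq transcript or symbol that the scanner output gives for a probe, which yielded 15 probes of 7 genes out of 56605 probes on the array. No probe matched Malat1. Of the 15 probes, 12 were called well above background by the scanner software on at least 2 of the 4 arrays of a group, and these were among the 37684 probes tested.

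The TM3 cells were either sham-treated or exposed to nsPEF, a train of nanosecond pulses of a strong electric field, and RNA was taken at 0, 4 and 24 h. The groups are named S0, S4 and S24 for sham and E0, E4 and E24 for nsPEF, each with 4 arrays labelled as biological replicates. Cells of all 6 groups had been grown in medium with serum, washed in the cold, strained and placed as a suspension in electroporation cuvettes, so the sham groups carry every step of the handling except the pulses. TM3 grows attached to the dish, and a change over time in the sham groups therefore follows detachment, cold and return to culture.

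Each time point had a slide of its own that carried its 8 arrays, and effects of time and of slide cannot be told apart. On each slide sham arrays lay in the first row and nsPEF arrays in the second, so the same holds for treatment and place. Between 51.2% and 62.1% of probes were well above background on an array, with group means of 58.8% to 59.9% in the sham groups and 53.9% to 55.3% in the nsPEF groups. Of 8 Leydig cell markers with a probe, Cyp17a1, Nr5a1 and Star were well above background on all 24 arrays and Cyp11a1, Hsd17b3, Hsd3b1, Hsd3b6 and Lhcgr on none, while of 5 fibroblast or peritubular genes Col1a1, Col1a2, Pdgfra and Acta2 were on all 24 and Thy1 on none. The Sertoli cell genes Gata4, Sox9 and Wt1 and the macrophage genes Cd68 and Csf1r were also on all 24, and Amh, Dhh, Adgre1 and Ptprc on 2 or fewer. Of the germ cell genes, Ddx4 was well above background on 4 arrays of S4 and 4 of S24 but on none of E4 or E24. In S4, Dazl was so on 2 arrays and Sycp3 on 1, and neither was in S0 or S24. A level is the log2 of a probe's intensity minus the log2 of the 75th percentile of its array, so 0 is the 75th percentile, and levels of different probes are not set against each other. In such bulk RNA, fewer cells that use a gene and less RNA per cell cannot be told apart.

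A long noncoding RNA is a transcript that is not translated into a known protein. Some are used whole: Neat1 is the scaffold of nuclear bodies called paraspeckles and Malat1 collects in nuclear speckles, where splicing factors gather. Others are mainly carriers: snoRNAs are cut out of the introns of hosts such as Gas5, Snhg1 and Snhg12 and go on to guide chemical modification of ribosomal RNA, while Mir100hg carries microRNA hairpins. H19 and Meg3 are imprinted RNAs, each made from the maternal chromosome in clusters that also hold a paternally expressed growth gene, Igf2 and Dlk1.

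The carriers are best seen through what lies inside them, and the coordinates that follow are those of RefSeq on GRCm38.p6. Mir100hg spans chr9:41376526-41615185, and 3 microRNA genes lie within that span, Mir100, Mirlet7a-2 and Mir125b-1. Mature microRNAs of the miR-100 and miR-125b families are shown because a related set, from Mir99a, Mirlet7c-1 and Mir125b-2, lies on chromosome 16 past the end of another host on the array, Mir99ahg at chr16:77329328-77558428. Each is written 5′ to 3′ from RefSeq, and capitals mark the seed, bases 2 to 8, which pairs with target messenger RNAs.
miR-100-5p, chr9:41531437-41531458, plus strand: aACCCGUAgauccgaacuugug
miR-99a-5p, chr16:77598940-77598961, plus strand: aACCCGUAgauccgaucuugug
miR-125b-5p, chr9:41581940-41581961, plus strand: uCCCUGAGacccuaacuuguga
The miR-100-5p and miR-99a-5p seeds were identical, and the mature miR-125b-5p of chromosome 9 had the same sequence as that at chr16:77646279-77646300. The 3 genes on chromosome 16 began 40508, 41229 and 87845 bases past the annotated end of Mir99ahg. The arrays measured the host RNAs, and the mature microRNAs were not measured here.

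The snoRNA hosts were compact genes. Gas5 spans chr1:161034601-161038539 with 8 annotated snoRNA genes inside, Snhg1 spans chr19:8723487-8726326 with 8, and Snhg12 spans chr4:132308678-132311024 with 4, namely Snora16a, Snora44, Snora61 and Snord99. Known host RNAs of this class often start with a C followed by a run of C and T, the terminal oligopyrimidine start they share with ribosomal protein messengers, which ties their use on the ribosome to growth signalling. The starts of the 3 hosts are printed for that reason, each as 30 bases before and 30 bases from the annotated RefSeq start, 5′ to 3′ on the plus strand, with capitals for the unbroken run of C and T that holds the annotated first base.
Snhg12, chr4:132308648-132308707: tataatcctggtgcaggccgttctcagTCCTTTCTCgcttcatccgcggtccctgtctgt
Gas5 downstream start, chr1:161035136-161035195: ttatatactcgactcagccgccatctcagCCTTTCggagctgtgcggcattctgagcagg
Snhg1, chr19:8723457-8723516: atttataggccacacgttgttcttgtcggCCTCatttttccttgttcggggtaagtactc
Gas5 upstream start, chr1:161034571-161034630: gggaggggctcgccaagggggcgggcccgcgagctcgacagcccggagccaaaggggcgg
The run was 9 bases long in Snhg12, 6 at the downstream start of Gas5 and 4 in Snhg1, and the upstream Gas5 start began with G. Over 32851 annotated starts of all genes, a run of at least 4 was found in 14.0%, of at least 6 in 7.25% and of at least 9 in 3.03%. Among 17 windows of 16 noncoding snoRNA hosts, 6 had a run of at least 4, the longest of 10 bases in Snhg18. These hosts included Gas5, Snhg1 and Snhg12 but not Snhg4, Snhg6 or Epb41l4aos, so the count does not cover every host on the array. An annotated first base can be off by some bases, so a run is a description of these letters only. A search of 300-base windows, 250 bases before each member's start to 50 after it, on both strands, found TGACGTCA 46 bases before the downstream Gas5 start and 57 bases before a Meg3 start. Of all such windows 1.79% hold TGACGTCA. CACGTG, held by 7.15% of windows, and TGAGTCA, held by 5.20%, were in no window of Gas5, Snhg1, Snhg12, Mir100hg, Meg3 or Malat1.

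Mir100hg had the widest range of the members measured on all arrays. Its probe 1, on spot row 302 of 384, read -2.11, -2.16, -1.86 and -2.08 in S0, 1.37, 1.53, 1.49 and 1.73 in S4, and 1.20, 1.18, 1.20 and 1.14 in S24. In nsPEF cells it read -2.01, -2.08, -1.83 and -1.94 in E0, 1.54, 1.65, 1.83 and 1.95 in E4, and 1.18, 0.91, 1.20 and 1.05 in E24. All 16 later arrays lay above all 8 arrays of 0 h, and the sham and nsPEF arrays of each time point overlapped. The level of probe 1 was -2.05 ± 0.13 (SD, n = 4) in S0, 1.53 ± 0.15 in S4 and 1.18 ± 0.029 in S24. The rise from S0 to S4 was 3.58 ± 0.093 (log2 difference ± SE from limma), or 12-fold, and from S0 to S24 3.24 ± 0.093, or 9.43-fold. The spread of S24 was narrow, and the fall from S4 to S24 was 0.35 in size, with all S24 arrays below all S4 arrays.

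Probe 2 of Mir100hg, of the same RefSeq transcript and on row 332, gave the pattern again. It read -2.74, -2.76, -2.39 and -2.42 in S0, 0.43, 0.59, 0.70 and 0.90 in S4, and 0.41, 0.44, 0.48 and 0.42 in S24. In nsPEF cells it read -2.37, -2.14, -2.56 and -2.34 in E0, 0.80, 0.70, 1.07 and 1.20 in E4, and 0.35, 0.19, 0.45 and 0.20 in E24. Again all later arrays lay above all arrays of 0 h. The rises were 3.24 ± 0.12 at 4 h and 3.02 ± 0.12 at 24 h, or 9.42-fold and 8.10-fold. Here the S4 and S24 arrays overlapped, with a difference of -0.22 ± 0.12 that turned to 0.41 with the spike-in scaling. In nsPEF cells the same probe was higher by 3.29 ± 0.12 at 4 h and 2.65 ± 0.12 at 24 h than at 0 h.

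Probe 3 of Mir100hg, for another transcript of Mir100hg and on row 37, was dim, with a median intensity of 12.9 units in S0 against 100.6 for probe 1, and well above background on 21 of 24 arrays. Its levels ran from -5.27 to -4.49 in S0, -4.60 to -4.19 in S4 and -4.47 to -3.96 in S24. The S24 arrays lay above the S0 arrays by 0.73 ± 0.57, and the S4 arrays overlapped with them at 0.50 ± 0.57, so a rise of the size of the other probes was not seen for this transcript. In nsPEF cells it scattered over a wider range, from -5.46 to -2.99 in E0 and from -5.16 to -2.10 in E4.

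**Figure D1:**
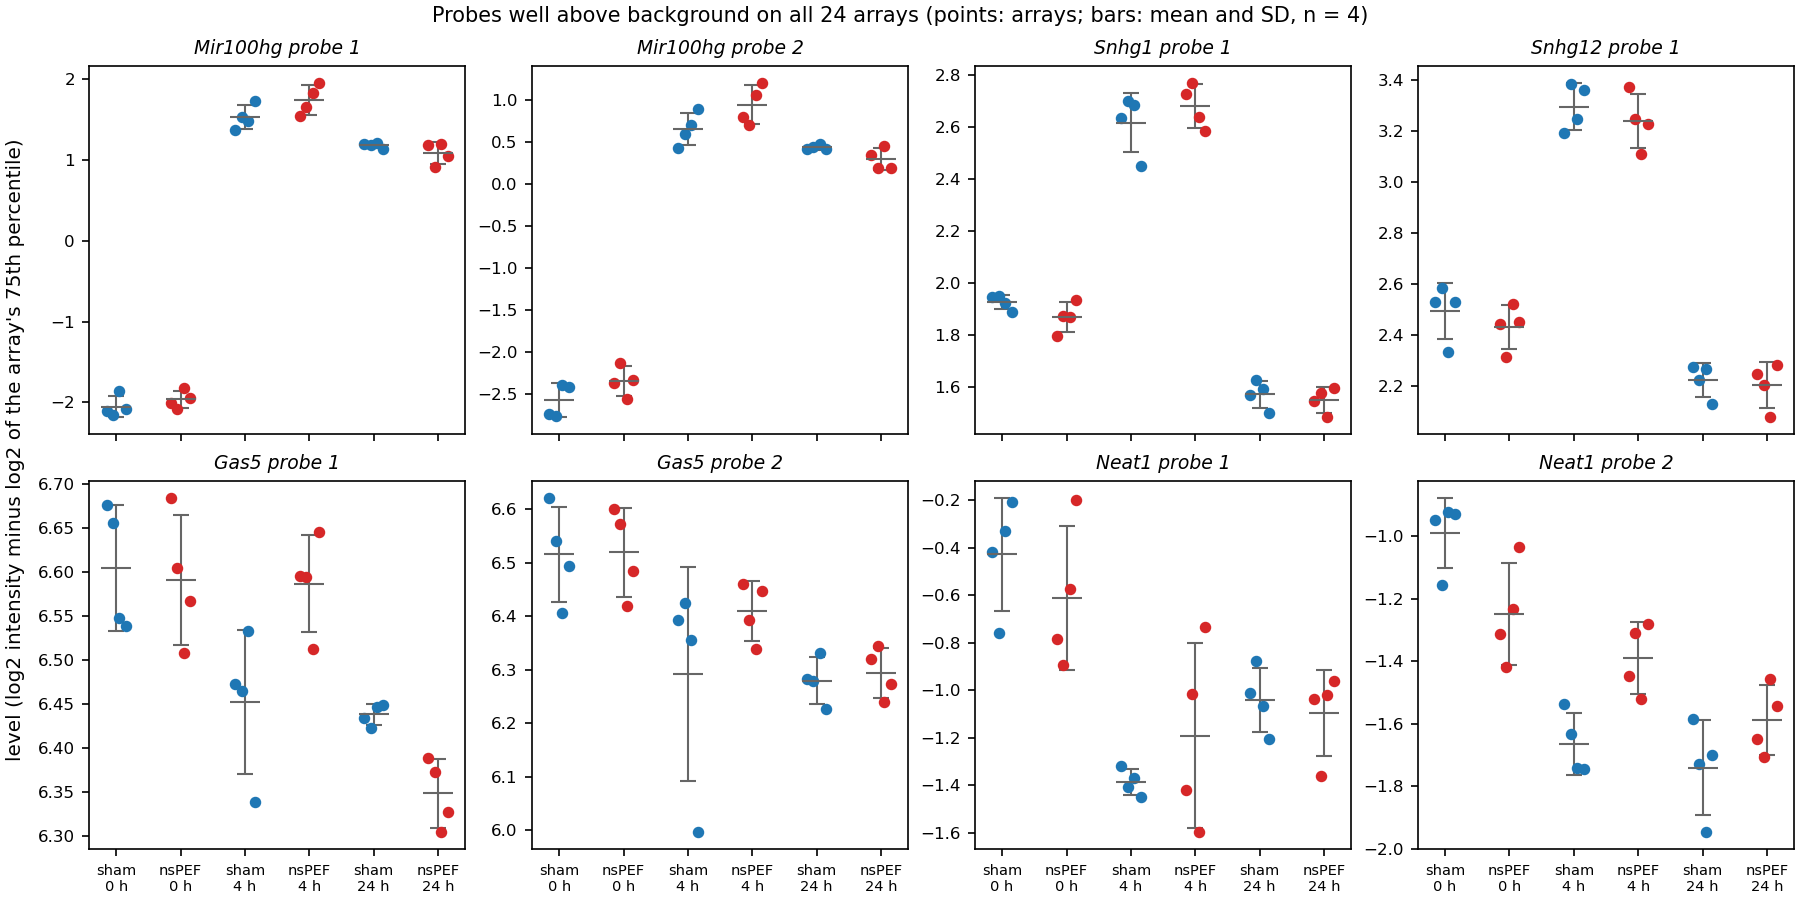
Levels (log2 intensity minus log2 of the array's 75th percentile) of the 8 probes that passed the background call on every array, with 1 point for each array, sham in blue and nsPEF in red, and bars for the mean and SD of 4 arrays. Both Mir100hg probes stand about 3 units higher at 4 and 24 h than at 0 h, Snhg1 and Snhg12 peak at 4 h, and sham and nsPEF arrays of a time point mostly overlap, each panel having its own axis.

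The snoRNA hosts followed 2 courses. Snhg12, on row 281, read 2.53, 2.58, 2.33 and 2.53 in S0, 3.19, 3.38, 3.25 and 3.36 in S4, and 2.27, 2.22, 2.27 and 2.13 in S24. In nsPEF cells it read 2.44, 2.31, 2.52 and 2.45 in E0, 3.37, 3.25, 3.11 and 3.23 in E4, and 2.25, 2.21, 2.08 and 2.28 in E24. The arrays of 4 h stood above all others, and those of 24 h lay below those of 0 h. The level rose by 0.80 ± 0.069 from S0 to S4, or 1.74-fold, and S24 was lower than S4 by 1.07 ± 0.069 in size. Against S0, S24 differed by -0.27 ± 0.069 under this scaling and by 0.41 when arrays were scaled on the spike-in RNA.

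Snhg1, on row 151, went the same way. It read 1.95, 1.95, 1.92 and 1.89 in S0, 2.64, 2.70, 2.69 and 2.45 in S4, and 1.57, 1.62, 1.59 and 1.50 in S24. In nsPEF cells it read 1.80, 1.87, 1.87 and 1.94 in E0, 2.73, 2.77, 2.64 and 2.58 in E4, and 1.55, 1.58, 1.48 and 1.59 in E24. No array of one time point overlapped with those of another. The rise at 4 h was 0.69 ± 0.055 in sham cells, or 1.61-fold, and 0.81 ± 0.055 in nsPEF cells, or 1.76-fold. From S4 to S24 the level fell by 1.05 on the log2 scale, and S24 differed from S0 by -0.36 ± 0.055, which became 0.32 with the spike-in scaling.

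The courses of Snhg1 and Snhg12 over the 6 group means, each centred on its own mean, differed by a root mean square of 0.050 on the log2 scale. Against Mir100hg probe 1 the same measure was 1.52 for Snhg1 and 1.49 for Snhg12. Among 12249 genes measured on all arrays, the courses nearest to that of Snhg1 were those of Nr1d1, Lce3d and Fam133b, at 0.024, 0.031 and 0.038. The nearest to Snhg12 were Rhpn2, Rab32 and Csrp2, at 0.027, 0.030 and 0.032. The nearest to Mir100hg lay farther off, Snhg4 at 0.50, Prl2c1 at 0.62 and U90926 at 0.63, and its nearest neighbour in course was thus itself an snoRNA host.

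Gas5, a host known for building up in cells whose growth has stopped, was bright and nearly level. Its probe 1, on row 169, read 6.68, 6.66, 6.55 and 6.54 in S0, 6.47, 6.47, 6.53 and 6.34 in S4, and 6.43, 6.42, 6.45 and 6.45 in S24. Its probe 2, on row 306, read 6.62, 6.54, 6.41 and 6.49 in S0, 6.39, 6.43, 6.35 and 6.00 in S4, and 6.28, 6.28, 6.33 and 6.23 in S24. The S24 arrays lay below the S0 arrays for both probes, and at 4 h the groups of probe 2 overlapped. From S0 to S4 the probes differed by -0.15 ± 0.049 and -0.22 ± 0.074, and both differences missed the threshold without S4 replicate 4, at -0.11 and -0.13. From S0 to S24 they differed by -0.17 ± 0.049 and -0.24 ± 0.074, which turned to 0.51 and 0.44 with the spike-in scaling and, for probe 1, to 0.0048 with quantile normalization. In nsPEF cells probe 1 read 6.68, 6.60, 6.51 and 6.57 in E0, 6.60, 6.59, 6.51 and 6.65 in E4, and 6.39, 6.37, 6.30 and 6.33 in E24. Probe 2 read 6.60, 6.57, 6.42 and 6.49 in E0, 6.46, 6.39, 6.34 and 6.45 in E4, and 6.32, 6.34, 6.24 and 6.27 in E24. The E24 arrays lay below the E0 arrays for both probes, while E0 and E4 overlapped. The mean of Gas5 probe 1 was 6.59 ± 0.055 (SD, n = 4) in E4 against 6.59 ± 0.074 in E0, and it was 6.35 ± 0.039 in E24. The direction of Gas5 at 24 h thus rests on the scaling, while at 4 h the means of both probes were below S0 under each scaling drawn in the plot of scalings. The 4 h peak seen for Snhg1 and Snhg12 had no counterpart in either Gas5 probe.

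**Figure D2:**
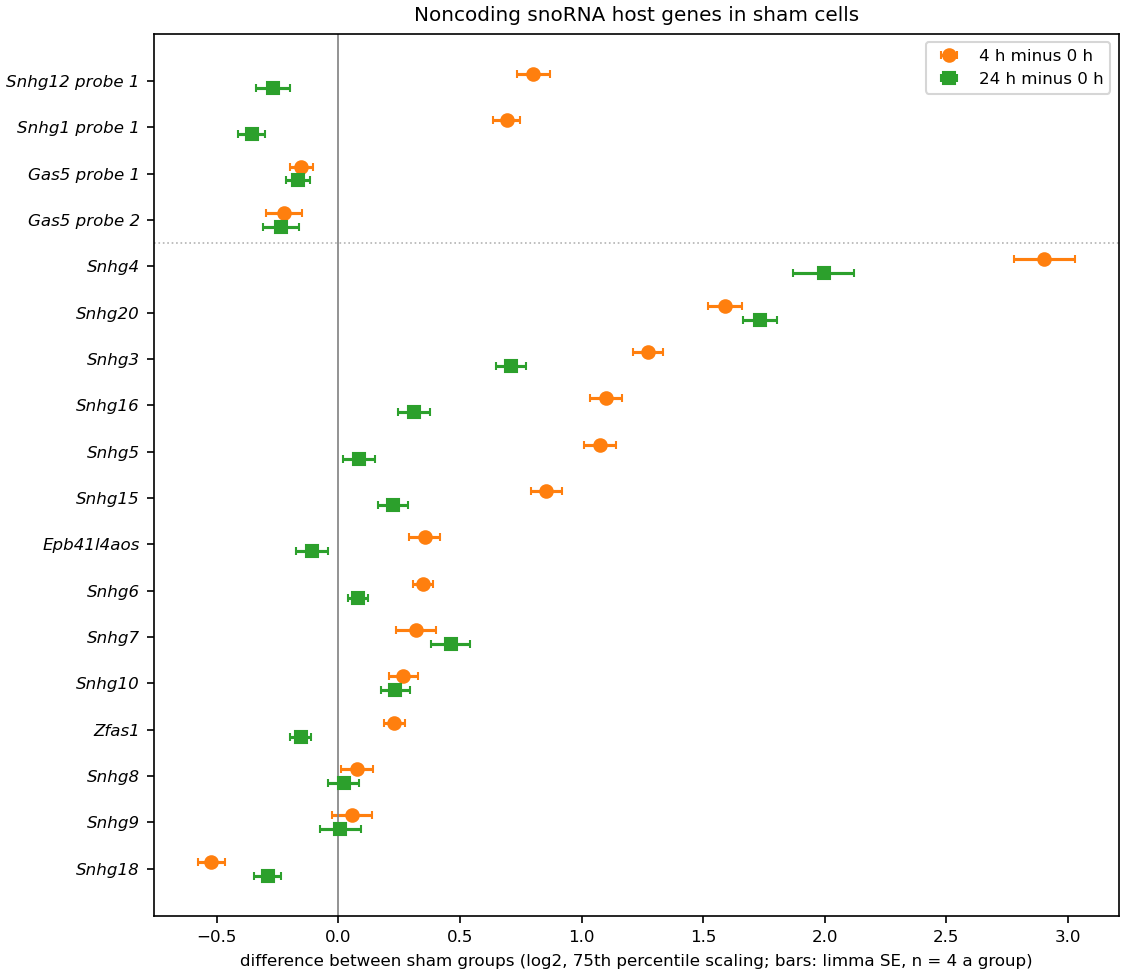
Differences between sham groups (log2, 75th percentile scaling) for the member snoRNA host probes, above the dotted line, and for the other noncoding hosts measured on all arrays, with bars for limma's SE and 4 arrays a group. Most hosts lie right of 0 at 4 h, led by Snhg4 at 2.90, while Gas5 and Snhg18 lie left of it, and all 24 h values left of 0 lie right of it under the spike-in scaling.

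The other noncoding snoRNA hosts gave a setting for these courses. Of 16 on the array 15 were tested, and 11 were higher and 1 lower in S4 than in S0, with a median difference of 0.35 beside -0.014 over all tested probes, of which 29.0% were higher and 30.3% lower. Snhg4 rose by 2.90 ± 0.13 (limma, adjusted p = 6.64e-14), Snhg20 by 1.59 ± 0.071 (adjusted p = 1.07e-13) and Snhg3 by 1.27 ± 0.062 (adjusted p = 3.92e-13). The host that fell at 4 h was Snhg18, by 0.52 on the log2 scale (adjusted p = 5.7e-08). From S0 to S24, 7 of the 15 were higher and 2 lower, with a median of 0.22 beside 0.016 over all tested probes, of which 18.1% were higher and 18.6% lower, and with the spike-in scaling 15 were higher and 0 lower. Snhg4, Snhg20 and Snhg3 were then above S0 by 2.00 ± 0.13, 1.73 ± 0.071 and 0.71 ± 0.062. From S4 to S24, 8 were lower and 1 higher, with a median of -0.27 beside 0.037, and with the spike-in scaling 2 were lower and 8 higher. Snhg12 and its neighbour Snhg3, at chr4:132351933-132353686, thus both rose at 4 h, while at 24 h Snhg12 was below S0 and Snhg3 above it under the 75th percentile scaling.

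Protein-coding snoRNA hosts, many of them ribosomal protein genes, split. Of 24, 7 were higher and 10 lower in S4 than in S0, beside 29.0% and 30.3% of all tested probes, with a median of -0.14, but 1 was lower with the spike-in scaling and 1 without S4 replicate 4. Both Gas5 probes also missed the threshold for this step under each of these changes. Ppan, a ribosome assembly gene, rose by 1.30 ± 0.10 (adjusted p = 9.05e-10), Dkc1 by 1.01 ± 0.070 (adjusted p = 9.18e-11) and Nop56 by 0.84 ± 0.069 (adjusted p = 1.66e-09). By 24 h, 2 were higher and 10 lower than in S0, beside 18.1% and 18.6%, with a median of -0.20, and with the spike-in scaling 20 were higher and 0 lower. The largest falls, of Rpsa by 0.43 (adjusted p = 0.0121), Rps12 by 0.39 (adjusted p = 0.0414) and Eef1b2 by 0.37 (adjusted p = 0.0434), reversed with it.

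Genes of the proteins that bind snoRNAs were also higher at 4 h. Of 13, 11 were higher and 0 lower in S4 than in S0, beside 29.0% and 30.3% of all tested probes, with a median of 0.84 beside -0.014, led by Nolc1, a chaperone of these particles, at 1.04 ± 0.044 (adjusted p = 4.73e-14) and Nop58, a core protein of the box C/D class, at 1.03 ± 0.053 (adjusted p = 8.87e-13). At 24 h against S0, 3 were higher and 0 lower, beside 18.1% and 18.6%, with a median of 0.094, Nolc1 by 0.32 (adjusted p = 1.12e-05), Dkc1 by 0.23 (adjusted p = 0.0141) and Nhp2 by 0.19 (adjusted p = 0.0165). Dkc1 and Nop56 count in this list and in that of the protein-coding hosts.

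Nonsense-mediated decay removes spliced host RNAs once ribosomes reach an early stop, and Gas5 is a known substrate. Of 10 factors of this decay, 7 were higher and 1 lower in S4 than in S0, beside 29.0% and 30.3% of all tested probes, with a median of 0.50 beside -0.014, among them Smg5 at 1.22 ± 0.070 (adjusted p = 4.88e-12) and the helicase Upf1 at 1.10 ± 0.089 (adjusted p = 1.06e-09). In S24, 4 were higher and 0 lower than in S0, beside 18.1% and 18.6%, with a median of 0.071, among them Upf1 by 0.38 (adjusted p = 0.00207) and Smg1 by 0.34 (adjusted p = 0.000134).

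Neat1 spans chr19:5824708-5845480, next to Malat1 at chr19:5795690-5802672, and both of its probes fell from S0. Probe 1, on row 50, read -0.42, -0.76, -0.33 and -0.20 in S0, -1.32, -1.41, -1.37 and -1.45 in S4, and -1.01, -0.88, -1.07 and -1.20 in S24. Probe 2, on row 138, read -0.95, -1.16, -0.92 and -0.93 in S0, -1.54, -1.63, -1.74 and -1.74 in S4, and -1.59, -1.73, -1.95 and -1.70 in S24. For both probes all S0 arrays lay above all S4 and S24 arrays. The differences from S0 to S4 were -0.96 ± 0.17 and -0.68 ± 0.090, a fall of 1.94-fold and 1.60-fold. From S0 to S24 they were -0.61 ± 0.17 and -0.75 ± 0.090, but with the spike-in scaling 0.067 and -0.071. On the step from S4 to S24 the probes differed in sign, with 0.35 ± 0.17 for probe 1 and -0.076 ± 0.090 for probe 2, but both were above 0 with the spike-in scaling, at 0.97 and 0.55.

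In nsPEF cells the spread of Neat1 probe 1 was widest at 4 h, with an SD of 0.39 in E4 against 0.055 in S4. Probe 1 read -0.78, -0.89, -0.57 and -0.20 in E0, -1.42, -1.01, -1.60 and -0.73 in E4, and -1.04, -1.36, -1.02 and -0.96 in E24. Probe 2 read -1.31, -1.42, -1.23 and -1.03 in E0, -1.45, -1.31, -1.52 and -1.28 in E4, and -1.65, -1.71, -1.46 and -1.54 in E24. The E0 and E4 arrays overlapped for both probes, with differences of -0.58 ± 0.17 and -0.14 ± 0.090, while the E24 arrays lay below the E0 arrays for both. All E4 arrays of probe 2 were above all S4 arrays, by 0.27 ± 0.090, and the adjusted p did not pass the threshold.

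Of 11 paraspeckle proteins, 4 were higher and 2 lower in S4 than in S0, beside 29.0% and 30.3% of all tested probes, with a median of 0.15 beside -0.014, among them Rbm14 at 0.54 ± 0.046 (adjusted p = 2.22e-09), Ewsr1 at 0.50 ± 0.077 (adjusted p = 9.29e-06) and Dazap1 at -0.47 ± 0.10 (adjusted p = 0.000595). Against S0, S24 had 3 higher and 2 lower, beside 18.1% and 18.6%, with a median of 0.017, with Ewsr1 at 0.35 (adjusted p = 0.00144), Tardbp at 0.30 (adjusted p = 0.00349) and Pspc1 at -0.45 (adjusted p = 0.00579), and with the spike-in scaling, under which Pspc1 reversed, 10 were higher and 0 lower. Of 10 nuclear speckle proteins, 8 were higher and 0 lower in S4 than in S0, again beside 29.0% and 30.3%, with a median of 0.50, led by Pnn at 1.12 ± 0.060 (adjusted p = 1.78e-12), Srsf1 at 0.97 ± 0.075 (adjusted p = 5e-10) and Srsf6 at 0.83 ± 0.058 (adjusted p = 1.15e-10). At 24 h Srsf1 and Pnn were higher by 0.44 (adjusted p = 0.000117) and 0.24 (adjusted p = 0.00333) than in S0 and Son was lower at -0.74 ± 0.067 (adjusted p = 4.15e-08), which became -0.060 and missed the threshold with the spike-in scaling, with a median of 0.039 over the list.

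The imprinted RNAs were at the limit of detection. H19, at chr7:142575530-142578146 with the microRNA gene Mir675 inside, had 2 probes, on rows 85 and 87, each well above background on 19 of 24 arrays. Probe 2 read -4.77, -5.17, -4.74 and -4.70 in S0, -5.09, -5.03, -4.69 and -4.24 in S4, and -3.92, -4.07, -4.21 and -3.83 in S24. The S24 arrays lay above all S0 and S4 arrays, by 0.84 ± 0.33 from S0, or 1.79-fold, but with normexp background correction the difference was -0.03, and the call was lost when any 1 array of S0 or S24 was left out, at 0.73 to 0.91. Probe 1 ran from -5.05 to -4.35 in S0, -4.69 to -4.24 in S4 and -4.91 to -4.39 in S24, and these overlapped. With the spike-in scaling, which raised the median of all tested probes to 0.70, both H19 probes were higher in S24 than in S0, by 0.85 and 1.52. In nsPEF cells probe 2 read -4.63, -4.48, -4.77 and -4.94 in E0, -5.01, -5.32, -6.48 and -4.29 in E4, and -4.28, -4.30, -4.10 and -3.23 in E24. Probe 1 ran from -4.87 to -4.43 in E0, -4.99 to -4.26 in E4 and -5.18 to -3.26 in E24. All E24 arrays of probe 2 lay above all E0 arrays, and those of probe 1 overlapped. In E4 only 1 array of probe 2 and 2 of probe 1 were well above background, against 4 of 4 in S4 for both. The levels of E4 and S4 overlapped for both probes, however. Over all probes the mean share well above background was 53.93% in E4 and 59.45% in S4. Igf2, the growth factor gene beside H19 at chr7:142650768-142666816, was well above background on 2 arrays of S0, 2 of S4 and none of the other groups, so it entered the tests only through the groups where it was high. S24 differed from S0 by -1.32 ± 0.25, which is no measured fold since no S24 array was well above background.

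Meg3, at chr12:109540996-109571729, had 4 probes, on rows 104, 171, 122 and 126, and was hardly measured. Probe 1 was well above background on 3 arrays, at -3.89 and -4.01 in E4 and -2.09 in E24, while its other arrays ran from -7.60 to -4.80. Probe 2 was so on 1 array, at -3.04 in E4, and probes 3 and 4 on none. No sham array had Meg3 well above background. Probe 1 entered the tests only through E4, where it was high on 2 arrays, so no fold is given, and nsPEF and sham arrays overlapped at 4 and at 24 h. The genes Rmst and Ndn, well above background on no array, averaged -7.73 and -7.82 in S4 but -6.79 and -6.87 in E4. Undetected probes can thus read higher on nsPEF arrays.

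**Figure D3:**
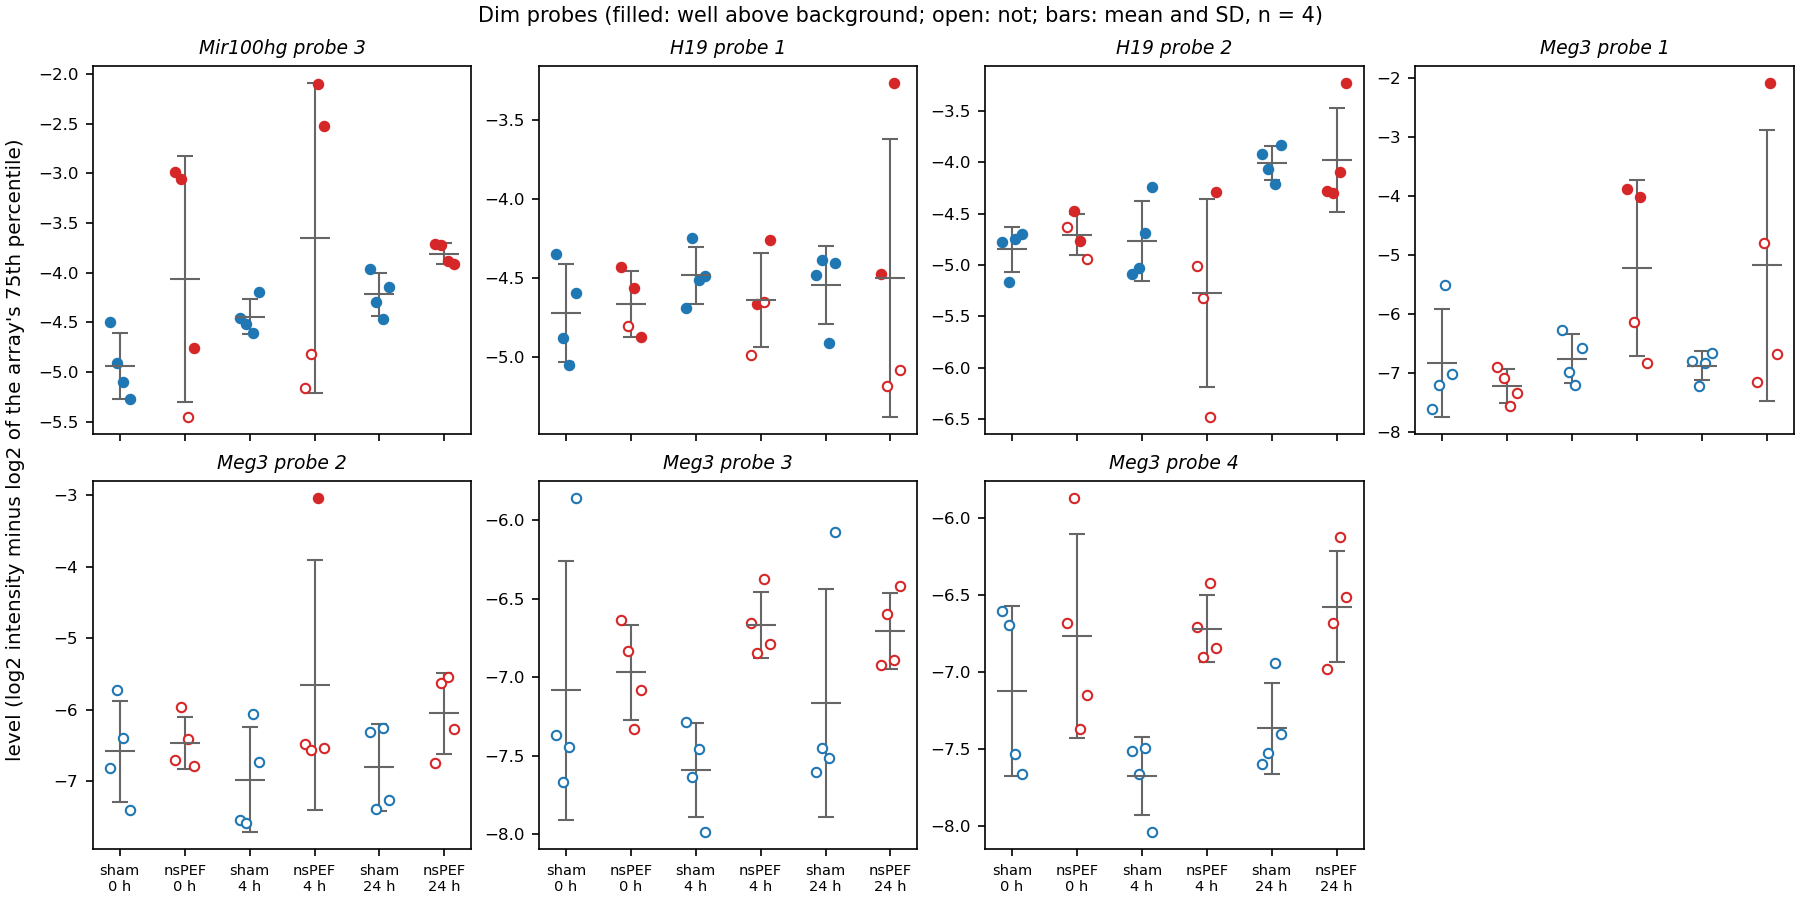
Levels (log2 intensity minus log2 of the array's 75th percentile) of the 7 dim probes of Mir100hg, H19 and Meg3, with filled points for arrays well above background and open points for the others, sham in blue and nsPEF in red, and bars for the mean and SD of 4 arrays. Filled Meg3 points occur on 3 arrays for probe 1 and 1 array for probe 2, all nsPEF, and each panel has its own axis.

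Of the genes around Meg3 on chromosome 12, Dlk1 and Mirg were measured better, on 20 and 24 arrays. Dlk1, the paternally expressed growth regulator at chr12:109452485-109463336, read -4.33, -4.67, -4.35 and -4.41 in S0, -3.13, -3.30, -3.06 and -2.72 in S4, and -4.97, -5.07, -5.00 and -5.58 in S24. It rose by 1.39 ± 0.22 from S0 to S4 (adjusted p = 1.74e-05) and differed by -0.72 ± 0.22 from S0 to S24 (adjusted p = 0.016), which became -0.036 and missed the threshold with the spike-in scaling. Mirg, a microRNA host at chr12:109734981-109749458, rose by 1.47 ± 0.17 at 4 h (adjusted p = 1.56e-07), and in S24 it overlapped with S0. Rian, the snoRNA host between them at chr12:109603945-109661716, was well above background on 4 arrays in all.

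At 24 h Dlk1 and Mirg differed between nsPEF and sham. Dlk1 read -3.54, -4.54, -4.80 and -3.56 in E24 and was higher than in S24 by 1.05 ± 0.22 (adjusted p = 0.0123), although 2 of the 4 E24 arrays were not well above background. Mirg read -2.35, -2.56, -3.02 and -2.27 in E24, higher by 0.98 ± 0.17 (adjusted p = 0.00308), and there S24 replicate 4 at -3.05 lay just below the lowest E24 array. Rtl1, at chr12:109564900-109604418 and overlapping with Meg3, read -2.17, -4.76, -6.56 and -2.35 in E24 and was well above background on 2 of these arrays and on no other array. It entered the tests only through E24, where it was high, so its fold and p are not given. Rian differed by 0.025 (adjusted p = 0.984), and Meg3 probe 1 did not pass the threshold. In E0 and E4, Dlk1, Mirg and Rtl1 did not pass the threshold against sham.

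Of 11 imprinted genes tested out of 16 on the array, 4 were higher and 1 lower in S4 than in S0, beside 29.0% and 30.3% of all tested probes, with a median of -0.15, among them Airn, an antisense RNA of the Igf2r locus, at 0.60 ± 0.099 (adjusted p = 2.33e-05). In S24 against S0, 3 were higher and 3 lower, beside 18.1% and 18.6%, with a median of 0.059. The 3 lower include Igf2, which entered the tests only through groups where it was high. No S24 array had Igf2 well above background, so its place in this count is not read as a measured fall. With the spike-in scaling 7 were higher and 1 lower. Cdkn1c, a cell cycle inhibitor, was higher by 0.89 ± 0.31 (adjusted p = 0.0316), which reversed with normexp correction. Against sham, 3 were higher in E24, beside 5.27% of all tested probes called, namely Dlk1, Mirg and Rtl1 with the limit just given, and Plagl1, an imprinted zinc finger gene, was higher in E4 by 0.45 ± 0.12 (adjusted p = 0.0486).

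The other microRNA hosts can be set beside Mir100hg. Of 7 tested out of 12 on the array, 4 were higher and 1 lower in S4 than in S0, beside 29.0% and 30.3% of all tested probes, with a median of 1.47. In S24, 2 were higher and 0 lower than in S0, beside 18.1% and 18.6%, with a median of 0.22, and with the spike-in scaling 4 were higher and 0 lower. Mir22hg rose by 1.66 ± 0.082 at 4 h (adjusted p = 5.56e-13) and stood 0.80 ± 0.082 above S0 at 24 h (adjusted p = 2.41e-07), and Dleu2 rose by 1.55 ± 0.26 at 4 h (adjusted p = 3.48e-05). Mir155hg, the host of an immune-response microRNA, was well above background on no S0 array and was at least 2.95-fold higher in S4 (adjusted p = 1.2e-05) and at least 1.47-fold higher in S24 (adjusted p = 0.00309), but with normexp correction the first missed the threshold and the second reversed.

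Mir99ahg, next to the set of microRNA genes that shares seeds with that of Mir100hg, was low. It read -3.48, -3.46, -3.67 and -3.49 in S0, -4.29, -4.23, -4.55 and -3.88 in S4, and -3.52, -3.58, -3.68 and -3.93 in S24. All S4 arrays lay below all S0 arrays, by 0.72 in size, but the adjusted p was 0.0769, and S24 differed from S0 by -0.15 ± 0.34. Single nsPEF arrays stood higher, at -2.42 in E4 and -2.15 and -2.86 in E24, but neither group passed the threshold against sham. Thus where both bright Mir100hg probes were far above S0 at 4 h, no Mir99ahg array of S4 was above any of S0.

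Among 15 other long noncoding RNAs tested out of 16, 3 were higher and 4 lower in S4 than in S0, beside 29.0% and 30.3% of all tested probes, with a median of -0.14, among them Tug1 at 0.78 ± 0.065 (adjusted p = 1.73e-09), Firre, an RNA of the X chromosome, at -0.90 ± 0.092 (adjusted p = 3.49e-08) and Miat at -1.80 ± 0.35 (adjusted p = 0.000223). Miat was well above background on 13 arrays in all and on only 1 array of S4, so the size of its fall is uncertain. In S24 against S0, 3 were higher and 1 lower, beside 18.1% and 18.6%, with a median of 0.13, with Dnm3os, a host of microRNAs in mesenchymal cells, at 1.01 ± 0.13 (adjusted p = 5.58e-06), Airn at 0.46 (adjusted p = 0.00113) and Pvt1 at -0.43 (adjusted p = 0.000811), and with the spike-in scaling, under which Pvt1 reversed, 13 were higher and 0 lower.

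Counts of member probes past the threshold are given as a description, since the members were selected on comparisons of these groups. In S4 against S0, 4 of the 12 tested probes were higher and 4 lower, beside 29.0% higher and 30.3% lower among all tested probes. In S24 against S0, 3 were higher and 6 lower, beside 18.1% and 18.6%. In S24 against S4, 0 were higher and 3 lower, beside 29.0% and 28.6%. Those higher in S4 were both bright Mir100hg probes, Snhg1 and Snhg12, and those lower were the Gas5 and Neat1 probes.

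**Figure D4:**
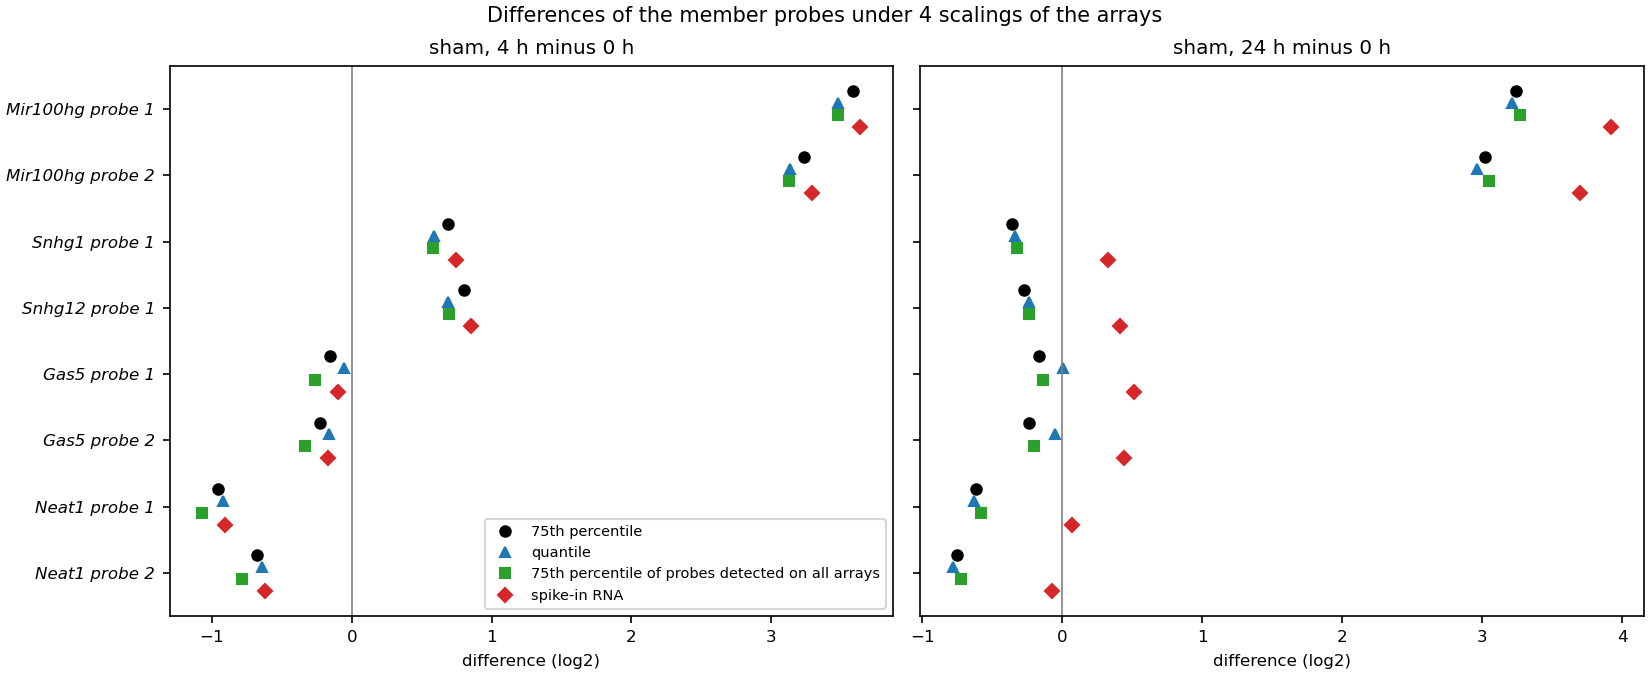
Differences between sham groups (log2) of the 8 bright member probes when arrays were scaled by the 75th percentile, by quantiles, by the 75th percentile of probes detected on all arrays, or by the spike-in RNA. At 4 h all markers of a probe stay on 1 side of 0, and at 24 h the spike-in marker of Snhg1, Snhg12, both Gas5 probes and Neat1 probe 1 lies across 0 from the 75th percentile marker, as does the quantile marker of Gas5 probe 1.

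Scaling on the spike-in RNA moved the median of all tested probes to 0.70 for S24 against S0, 0.66 for S24 against S4 and 0.040 for S4 against S0, from 0.016, 0.037 and -0.014. The falls of Snhg1, Snhg12 and Neat1 at 24 h are therefore falls relative to the other transcripts of the array. For Gas5 the relative fall also depended on the method. Under quantile normalization its probes 1 and 2 differed by 0.0048 and -0.051 from S0 to S24. All 13 snoRNA particle genes, 9 of 10 decay factors and 9 of 10 nuclear speckle genes were higher in S24 than in S0 under it. So were all 15 other noncoding snoRNA hosts, 20 of 24 protein-coding hosts, 10 of 11 paraspeckle genes and 13 of 15 other long noncoding RNAs. Fewer were so among imprinted genes, 7 of 11, and other microRNA hosts, 4 of 7. With the median of all tested probes at 0.70, these counts are not read as traits of the lists. The rises of Mir100hg at 24 h were 3.92 and 3.70 under the spike-in scaling, and the small fall of Mir100hg probe 1 from S4 to S24 became 0.28. The falls of Snhg1 and Snhg12 from S4 to S24 kept their direction, at -0.42 and -0.45.

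For nsPEF against sham at the same time, 0 of the 12 member probes passed the threshold at 0, 4 or 24 h with limma, beside 0.103%, 3.47% and 5.27% of all tested probes. Unadjusted p-values under 0.05 numbered 1, 4 and 0 of the 12 at these times, beside 3619, 8009 and 8374 of the 37684 tested probes. Mir100hg probe 1 differed by 0.089 ± 0.093 at 0 h, 0.21 ± 0.093 at 4 h and -0.096 ± 0.093 at 24 h, and probe 2 by 0.23, 0.29 and -0.14 ± 0.12. Snhg1 differed by -0.059, 0.063 and -0.020 ± 0.055, and Snhg12 by -0.061, -0.057 and -0.020 ± 0.069. Gas5 probe 1 differed by -0.013, 0.13 and -0.090 ± 0.049, and in E24 its 4 arrays lay below the 4 of S24. Probe 2 of Gas5 differed by 0.0040, 0.12 and 0.014 ± 0.074. Neat1 probe 1 differed by -0.18, 0.20 and -0.054 ± 0.17, and its probe 2 by -0.26, 0.27 and 0.15 ± 0.090. The Neat1 probes thus lay on 1 side of sham together at 0 h and on the other at 4 h. With the spike-in scaling, 5 member probes were higher at 4 h. The median of all tested probes was 0.12 at 0 h and 0.19 at 4 h under it. The share of all tested probes higher under that scaling is not given, so nothing is read from this count.

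**Figure D5:**
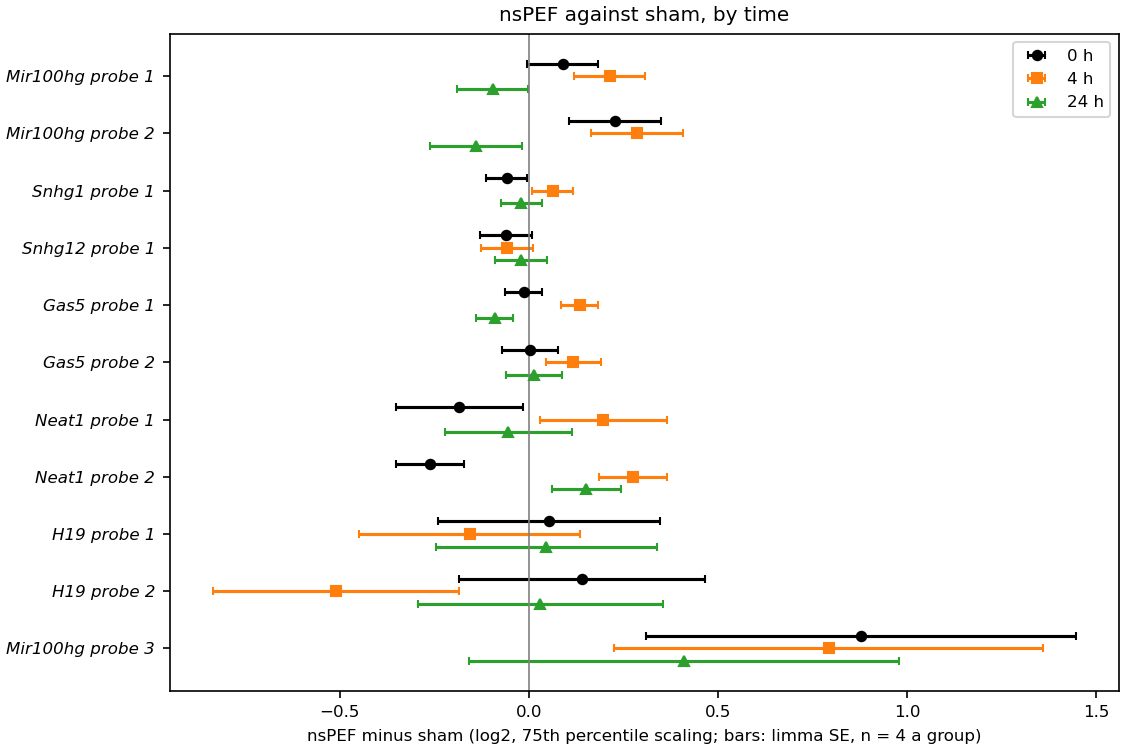
Differences of nsPEF from sham (log2, 75th percentile scaling) at 0, 4 and 24 h for the 11 member probes detected on 19 or more arrays, with bars for limma's SE and 4 arrays a group. Snhg1 and Snhg12 stay within 0.063 of 0 at all 3 times, and the dim H19 and Mir100hg probe 3 have the widest bars.

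The courses over time were thus set side by side in sham and nsPEF cells. From 0 to 4 h the nsPEF groups differed by 3.71 ± 0.093 for Mir100hg probe 1, 0.81 ± 0.055 for Snhg1 and 0.81 ± 0.069 for Snhg12, where the sham groups differed by 3.58, 0.69 and 0.80. For the dependence of treatment on time, 0 of the 12 member probes passed the threshold with limma, beside 0.361% of all tested probes. An unadjusted p under 0.05 was found for 3 of the 12, beside 6170 of the 37684 tested probes. No gene of the other noncoding snoRNA hosts passed the threshold for nsPEF against sham at any time. Of the snoRNA particle proteins, Nhp2 was higher in E24 by 0.29 ± 0.058 (adjusted p = 0.00944) and Ruvbl2 lower in E4 by 0.28 in size (adjusted p = 0.0126), and of the other long noncoding RNAs Tug1 was lower in E24 by 0.30 in size (adjusted p = 0.0134).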

How the data were processed

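Cy3-labelled RNA of the 24 samples was hybridised to 1-colour Agilent arrays with added spike-in RNA. The authors deposited the scanner text of each array, read with Agilent Feature Extraction 12.0 per the submitters' processing notes, with a background-subtracted intensity for each spot, in arbitrary units and not scaled between arrays. The authors also deposited log2 values of all arrays, made in GeneSpring with a percentile shift and a median baseline for each probe, and these served as an alternative. All of their columns were matched, with 0 left out.

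From the intensities, spots marked as not uniform or as population outliers were left out, spots of a probe were averaged, and the log2 of the 75th percentile over the 59305 spots that are not controls was subtracted. The percentile ran from 300.3 to 787.2 between arrays. The number of arrays limits the precision. Following the study's methods, a probe entered the tests if at least 1 group had it well above background in 2 or more of its 4 arrays, which left 37684. The limma package 3.58.1 (R 4.3.3) fitted 6 group means to the 24 arrays together, and Benjamini-Hochberg adjustment ran over the 37684 probes. An adjusted p under 0.05 was the threshold. The study itself used a two-way ANOVA on these groups. P-values measure the spread between samples labelled as biological replicates.

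Probes were named through the RefSeq accession of the scanner text, which gave 1 symbol to 34577 of 56605 probes, 11 of them directly by symbol. A gene of a list stands by its probe with the highest mean over all arrays, and it counts as tested if that probe passed the filter. The member genes, the lists and the tests were chosen with earlier results of these data known. Named genes are every member with every probe, for each list up to 3 genes with the largest differences past the threshold in S4 against S0, in S24 against S0 and in nsPEF against sham, and the 3 genes nearest in course to each member that spans at least 1 on the log2 scale and is measured on all arrays. Snhg18, Rian, Mir99ahg and the per-array values of list genes were added after their values were seen. One gene that the rule names is not reported here. A fold against a group with no array well above background is a lower bound, against the higher of the probe's own value and the lowest signal well above background on each array. The procedure was tested on simulated data. Sequences were taken from RefSeq tables of GRCm38.p6.

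Alternatives were quantile normalization, scaling on 210 spike-in spots of 6 probes, the 75th percentile of probes detected on all arrays, normexp correction with an offset of 50, no filter, a filter that asks for all 4 arrays, marked spots kept, the deposited log2 values, a replicate block, values centred by spot row, array quality weights, a mean over a gene's probes, and arrays or replicate numbers left out in turn. A percentile taken over probes in place of spots was chosen after seeing the data.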

Additional observations from a re-analysis of the deposited data

Results flagged for a closer look

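Within 90 sets of 4 arrays, 1 for each member probe and group, 6 had an array that stood apart by Dixon's gap test at its 95% critical value, which chance passes in about 1 set in 20. Gas5 probe 2 read 5.9962 in S4 replicate 4, with the other arrays between 6.3548 and 6.4252. Neat1 probe 2 read -1.1555 in S0 replicate 2, with the others between -0.9488 and -0.9237. H19 probe 2 read -5.1699 in S0 replicate 2, with the others between -4.7711 and -4.7015. The other 3 were Meg3 probes: probe 2 read -3.0377 in E4 replicate 3 with the others from -6.5587 to -6.476, and probe 3 read -5.8571 in S0 replicate 4 and -6.0759 in S24 replicate 4, both not well above background, with the others from -7.665 to -7.3647 and from -7.5997 to -7.4514.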

How the results depend on the processing

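Of 628 recomputed counts of the members and the other noncoding snoRNA hosts, 586 stayed within 1.5 times, and of 1414 recomputed differences of the 41 named list genes 1308 kept direction and side of the threshold, 99 fell short of it and 7 reversed. In what follows each alternative count is given with the main count in brackets, members before the other hosts, and the cause of a change was not tested. The share of all tested probes under each alternative is not given. The counts are therefore not read as results about the members or hosts.

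The spike-in scaling gave 2 members lower in S4 than in S0 (4). In S24 against S0 it gave 9 members (3) and 15 hosts (7) higher and 0 members (6) and 0 hosts (2) lower, in S24 against S4 7 members (0) and 8 hosts (1) higher and 2 hosts lower (8), in E0 against S0 1 host higher (0), in E4 against S4 5 members (0) and 7 hosts (0) higher, and 2 members for the interaction (0). Quantile normalization gave 1 host lower in S24 than in S0 and 3 higher than in S4. The percentile of detected probes gave 3 members and 3 hosts higher in S24 than in S4 and 1 member higher in E4 than in S4. Normexp correction gave 2 members lower in S4 than in S0, 1 host lower in S24 than in S0 and 1 member higher in E4 than in S4. Without a filter 2 members were higher in E4 than in S4, and with the filter of all 4 arrays 1 was higher in S24 than in S4. Centring by spot row gave 1 member higher in S24 than in S4, 1 host lower in E4 than in S4 and 1 host lower in E24 than in S24. Array weights gave 2 members and 3 hosts higher in S24 than in S4, 1 member and 1 host higher in E24 than in S24, and 1 member for the interaction.

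Same-numbered sham and nsPEF arrays had correlations of their deviations between -0.04 and 0.093. The paper states that the tests of a biological replicate, except for adhesion, shared a cell suspension. Low correlations over all tested probes cannot decide whether the numbers pair the samples. The replicate block gave 1 member (0) and 2 hosts (1) higher in S24 than in S4 and no other count beyond 1.5 times.

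With arrays or replicate numbers left out, the members lower in S4 than in S0 ran from 2 to 4, with 2 without S4 replicate 4 and without replicate 1. Members lower in S24 than in S0 ran from 3 to 7, with 3 without replicate 1, and hosts lower from 1 to 3, with 1 without replicate 1 or 2. Members higher in S24 than in S4 ran from 0 to 2, with 1 without S4 replicate 4 or replicate 3 and 2 without replicate 4, and hosts higher from 1 to 3, with 3 without S4 replicate 4 and 2 without replicate 4.

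Differences past the threshold that reversed with the spike-in scaling were, for S24 against S0, Snhg1 at 0.3234, Snhg12 at 0.4107, Gas5 at 0.5139 and 0.4444, Neat1 probe 1 at 0.0673, Rpsa at 0.2483, Rps12 at 0.2926, Eef1b2 at 0.3111, Pspc1 at 0.2336 and Pvt1 at 0.2534, and for S24 against S4 Mir100hg probe 1 at 0.2781. Negative differences from S4 to S24 that had not passed the threshold also changed sign with it, to 0.41 for Mir100hg probe 2, 0.55 for Neat1 probe 2, 0.61 for both Gas5 probes, 0.56 for H19 probe 1 and 0.51 for Meg3 probe 1. With quantile normalization Gas5 probe 1 was at 0.0048. With normexp correction, for S24 against S0, H19 probe 2 was at -0.0305, Cdkn1c at -0.0139 and Mir155hg at -0.0247. The direction of Mir100hg probes 1 and 2, Snhg1 and Snhg12 from S0 to S4 was kept under all 12 settings and with any array left out, while the dim Mir100hg probe 3, not past the threshold, was at -0.12 with normexp correction. Dim probes of H19, Meg3 and Mir100hg probe 3 are limited by signal over background.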
